A study of Mus musculus with 17 samples.

Results

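The 39 genes described here are interferon-stimulated genes and sensors of viral RNA, measured by RNA sequencing in mouse fetal liver cells. They form a list of names: each symbol was looked up in 1 of the 3 deposited count tables and the tables were joined by Ensembl gene identifier. All 39 were found among the 46880 genes that the 3 tables share. All cells came from embryos of E12.5 to E13.5 of a knock-in mouse strain on a B6J background that makes Cas9 and EGFP from the Rosa26 locus. Of the 17 libraries, 14 carried a guide RNA against Gata1 (sgGata1) and are labelled Gata1s, after the short form of the blood transcription factor GATA1. In these a second transgene defined the group. LUC (luciferase, n = 3) and Arid3a (n = 3) had 48 h of doxycycline at 1 µg/mL. The control hairpin sh-ctrl (n = 3), the hairpin shArid3a (n = 2, numbered 1 and 3) and miR-125b (n = 3) had 10 days of doxycycline at the same dose. The group WT (n = 3) carried a luciferase guide (sgLuc) and a luciferase hairpin (shLuc) with no doxycycline, and its counts came in a table of their own. The study asked what changes in Gata1s cells when the level of Arid3a, a DNA-binding transcription factor, is altered, and when miR-125b, a microRNA studied in megakaryoblastic leukaemia, is expressed. The labels do not say whether libraries of a group came from separate embryos or cultures, so p-values measure the spread between these libraries, which may be technical.

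In this pathway, RIG-I (encoded by Ddx58) and MDA5 (Ifih1) bind double-stranded RNA in the cytosol and signal through the adaptor MAVS to the factors IRF3 and IRF7, which switch on type I interferon. Interferon binds the receptor IFNAR1 and IFNAR2 on the cell surface, the kinases JAK1 and TYK2 phosphorylate STAT proteins, and a complex that holds STAT2 and IRF9 binds the interferon-stimulated response element (ISRE) in the promoters of antiviral genes. Several products of these genes act on RNA directly: OAS enzymes are switched on by double-stranded RNA and make a small nucleotide messenger, PKR (Eif2ak2) halts translation, and ADAR edits the cell's own double-stranded RNA so that MDA5 ignores it. In the fetal liver, interferon signalling acts on blood stem and progenitor cells, and embryos that lack ADAR lose their liver haematopoiesis.

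The ISRE is the sequence that ties many of the 39 genes to interferon, so promoter windows of 250 bases before to 50 bases after the start site (RefSeq, GRCm38.p6) were searched on both strands for the letters GAAANNGAAA. The window was given for 29 of the 39 genes, and not for Zbp1, Mx2, Usp18, Rtp4, Ifi27, Parp9, Parp14, Mx1, Dhx58 and Oas2. A match lay in 12 of the 29 windows (41.4%), those of Bst2, Ddx58, Eif2ak2, Ifih1, Ifit1, Ifit3, Isg15, Oas1a, Oas3, Rsad2, Stat2 and Trim30a, against 3.99% of the 27025 genes in the RefSeq table. Another interferon element, the GAS pattern TTCNNNGAA, was matched in 9 of the 29 (31%), against 9.55% of all genes. Both patterns can share the letters GAA. A match is a description of these letters and not a shown binding site. The windows below are of a pair of genes that fell in the miR-125b libraries (Oas3 and Rsad2) and a pair that were not called there (Isg15 and Oas1a), with the matched letters in capitals.
Oas3: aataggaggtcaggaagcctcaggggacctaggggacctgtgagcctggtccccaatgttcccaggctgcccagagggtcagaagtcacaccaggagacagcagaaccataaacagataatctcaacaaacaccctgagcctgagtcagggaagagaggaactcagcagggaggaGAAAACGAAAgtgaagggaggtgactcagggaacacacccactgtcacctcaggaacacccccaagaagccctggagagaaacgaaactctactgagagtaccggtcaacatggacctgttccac
Rsad2: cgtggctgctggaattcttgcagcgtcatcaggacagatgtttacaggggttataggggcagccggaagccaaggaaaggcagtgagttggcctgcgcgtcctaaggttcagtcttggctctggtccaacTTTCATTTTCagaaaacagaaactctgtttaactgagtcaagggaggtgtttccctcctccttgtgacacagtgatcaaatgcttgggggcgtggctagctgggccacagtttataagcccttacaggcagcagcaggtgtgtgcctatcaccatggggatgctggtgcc
Isg15: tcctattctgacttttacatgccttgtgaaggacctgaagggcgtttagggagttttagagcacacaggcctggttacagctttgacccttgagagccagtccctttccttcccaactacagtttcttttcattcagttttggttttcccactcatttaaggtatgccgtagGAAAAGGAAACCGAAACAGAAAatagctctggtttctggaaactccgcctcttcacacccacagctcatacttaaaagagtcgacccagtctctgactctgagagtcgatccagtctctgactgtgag
Oas1a: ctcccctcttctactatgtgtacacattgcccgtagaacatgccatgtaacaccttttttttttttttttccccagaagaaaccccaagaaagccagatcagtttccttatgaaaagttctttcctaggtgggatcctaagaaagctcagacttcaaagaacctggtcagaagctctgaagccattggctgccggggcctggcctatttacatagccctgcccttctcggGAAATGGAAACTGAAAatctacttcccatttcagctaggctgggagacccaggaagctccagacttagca
The Oas3 window (chr5:120777610-120777909, minus strand) held 1 match, on the coding strand, beginning 75 bases before the start site. In the Rsad2 window (chr12:26456403-26456702, minus strand) the match was on the other strand, 120 bases before the start site. In the Isg15 window (chr4:156200769-156201068, minus strand) 3 overlapping matches began 78, 72 and 66 bases before the start, and in the Oas1a window (chr5:120907476-120907775, minus strand) overlapping matches began 20 and 14 bases before it. So the letters were present in genes that were called and in genes that were not: with miR-125b set against sh-ctrl, as described below, 6 of 11 tested genes with a match and 6 of 15 tested genes with a window but no match were called lower.

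The microRNA expressed in 1 group, mmu-miR-125b-5p (chr9:41581940-41581961 and chr16:77646279-77646300, both on the plus strand, GRCm38.p6), pairs with messages mainly through its seed, bases 2 to 8, shown in capitals, and its complement CTCAGGG was searched for in 3′ untranslated regions.
mmu-miR-125b-5p: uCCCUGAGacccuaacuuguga
Of the 36 genes tested in the 10-day table, 9 (25%) had a match, against 18.9% of 11570 tested genes, and 6 had the longer match CTCAGGGA, against 6.85%. Of the 15 genes called lower with miR-125b, 3 had a match, shown here in capitals with up to 8 bases on either side.
Rsad2: gtctaatgCTCAGGGAtatatgta
Ifih1: cacctgggCTCAGGGAatgcccat
Parp14: ttggttaaCTCAGGGcaaggctg
The other 12 genes called lower had none, and Ifi35, which was called higher, had a match of its own. Irf1, Oas1a, Trim30a, Samhd1 and Isg20 had a match and were not called.

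Library totals were 31339238 to 38678649 counts in the 48 h table, 31992089 to 40859301 in the 10-day table and 16362439 to 19212193 in WT. Gata1, the target of the guide, was 61.8 to 72.9 CPM (a gene's count as a share of the library total, scaled by TMM) in WT and 231.9 to 593 CPM in the Gata1s libraries, and gene counts do not separate its short form from the full one. Arid3a, the other targeted gene, was 61.9, 59.0 and 64.2 CPM in LUC and 53.1, 68.9 and 74.2 CPM in the libraries labelled Arid3a, a log2 fold change of 0.08 (SE 0.12, adjusted p = 0.737), so no rise was detected and no direction is drawn from that label. In the 10-day table Arid3a was 49.5, 61.6 and 63.6 CPM in sh-ctrl, 22.3 and 21.4 CPM in shArid3a (log2 fold change -1.43, SE 0.20, adjusted p = 0.0368) and 7.99, 10.9 and 11.1 CPM in miR-125b (log2 fold change -2.55, SE 0.18, adjusted p = 0.000282). Transcripts of ribosomal RNA-like genes summed to 356 to 1029 CPM in LUC, Arid3a and sh-ctrl and to 2857 to 3915 CPM in shArid3a and miR-125b. LUC replicate 3 held transcripts that the other LUC libraries had at or near 0, with S100a9 at 47.5 CPM, S100a8 at 26.9 CPM and Mpo at 7.93 CPM. It was also the highest of its group for 30 of the 38 genes detected there. The strand setting of the counting is not given in the sources used here, and 17 of the 39 genes overlap another annotated gene, so reads of overlapping genes on opposite strands (Parp9 and Dtx3l among the 39) cannot be told apart.

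Across the 6 groups the 39 genes were highest in WT. Their summed level was 4790.0 to 4869 CPM in the 3 WT libraries and 618 to 963 CPM in the 14 Gata1s libraries. A list of 38 interferon-induced genes outside the 39 summed to 5224 to 5780 CPM in WT, within the 3325 to 9886 CPM of the Gata1s libraries. The 13 receptor and JAK-STAT genes (1023 to 1070 against 462 to 620.3 CPM) and the sensor adaptors and kinases (744.6 to 778 against 401.5 to 471.9 CPM) were higher in WT. For 38 of the 39 genes every WT library stood above all 14 Gata1s libraries, whether levels were scaled by TMM or by library totals, against 21% of the 16142 genes with at least 10 counts in at least 2 libraries. The exception was Ifi27, a mitochondrial and nuclear-envelope protein gene, with 132, 75.0 and 92.8 CPM in WT and a lowest, median and highest level of 38.2, 60.1 and 114 CPM in the Gata1s libraries. Ifi44 and Oasl1 reached 10 counts in WT libraries only, so for them the count rule itself favoured the place of WT. WT differs from every other group in guide, hairpin, doxycycline and table at once, so these cannot be told apart, no test was made, and all values of WT are a description. In bulk RNA, fewer cells that make a gene and less of it per cell cannot be told apart either.

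**Figure D1:**
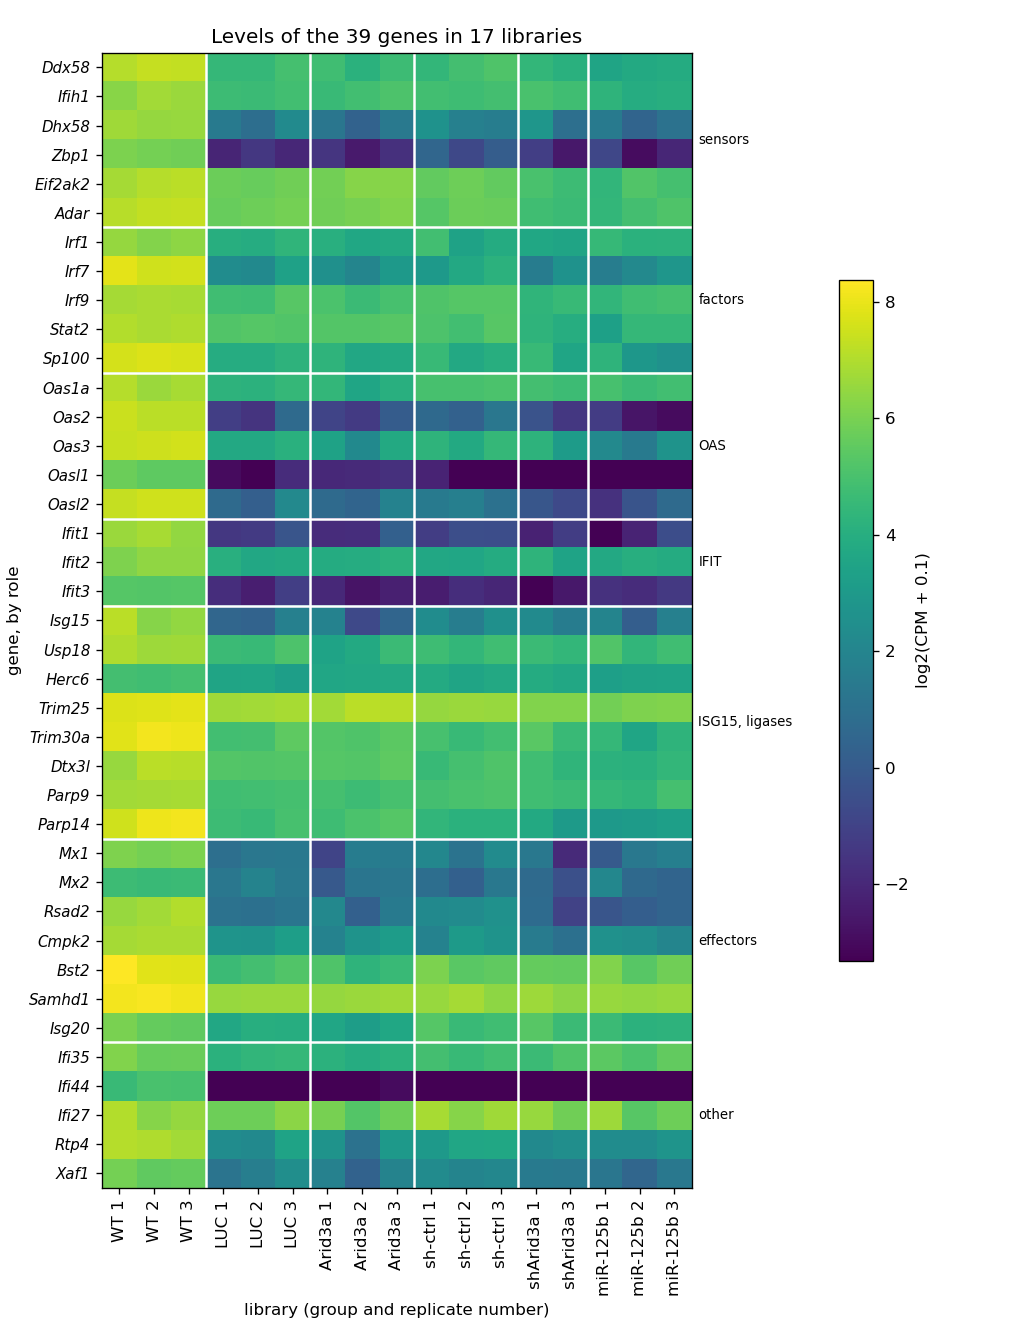
Levels of the 39 genes, as log2(CPM + 0.1), in each of the 17 libraries, with genes in rows by role and libraries in columns by group. The 3 WT columns are brighter than all others for 38 of the 39 genes, and Ifi44, Oasl1, Ifit3 and Zbp1 are near the bottom of the scale in the Gata1s libraries.

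The WT level was a median of 6.83 times the mean of the 14 Gata1s libraries over the 37 genes with more than 42 counts there, with a range from 1.41 (Ifi27) to 259 (Ifit1). The ratio was at least 10 for 17 genes, between 2 and 10 for 19 and under 2 for 1. Over all 15110 genes with such counts the median ratio was 0.94, and 4.76% of them had a ratio of at least 10. The genes with the widest ratios were nearly silent in the Gata1s cells. Ifit1, which binds viral RNA caps, had 99.0, 114 and 88.8 CPM in WT and 0, 0.312 and 1.08 CPM as the lowest, median and highest Gata1s level. Ifit3, its partner, had 39.6, 38.0 and 38.7 CPM in WT and at most 0.354 CPM in a Gata1s library. Oas2 had 176, 145 and 145 CPM in WT and 0.0279, 0.389 and 2.41 CPM as the lowest, median and highest Gata1s level. Zbp1, a sensor of Z-form nucleic acids that can trigger cell death, had 67.9, 61.0 and 57.7 CPM in WT against 0.0304, 0.229 and 1.33 CPM. All 4 thus separated WT from every Gata1s library by a wide margin. Oasl1 and Ifi44 had too few reads for a ratio: Ifi44 had 437, 669 and 675 counts in the WT libraries and 1 count in all 14 Gata1s libraries together, and Oasl1 had 934 to 958 counts in WT and at most 8 counts in a Gata1s library.

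The genes with the narrowest ratios included several of the most abundant ones in the Gata1s cells. Per kilobase of gene length, the mean Gata1s level was highest for Bst2 (55.0 CPM per kb), which tethers budding virus to the cell, Ifi27 (48.2), Trim25 (16.8), the ubiquitin ligase that activates RIG-I, Ifi35 (15.7) and Oas1a (13.1). In WT the order was Bst2 (343 CPM per kb), Isg15 (137), the ubiquitin-like modifier, Rtp4 (78.4), then Irf7 and Ifi27 (both 68.2). Ratios of WT to Gata1s were 2.15 for Ifi35, 2.36 for Trim25, 2.43 for the ligase gene Herc6, 2.5 for the exonuclease gene Isg20, 2.72 for Eif2ak2 and 3.03 for Samhd1, whose product breaks down deoxynucleotides. Bst2 was 333, 230.2 and 223 CPM in WT and 19.1, 40.7 and 72.0 CPM as the lowest, median and highest Gata1s level, so its ratio of 6.24 lay near the median of the list although its level was the highest per kilobase.

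Markers of several other blood cells, but not of all, were also higher in WT. The 8 macrophage markers summed to 324 to 391 CPM in WT and 2.84 to 8.52 CPM in the Gata1s libraries, and the 7 granulocyte and myeloid markers to 9285 to 13210 CPM against 5.08 to 163.7 CPM. All 8 and all 7 were detected in WT. Of the 6 plasmacytoid dendritic cell markers, which include Bst2 itself, the defining gene Siglech was 0.445 to 1.12 CPM in WT and at 0 in every Gata1s library except LUC replicate 3 (0.413 CPM). That list, with 1 marker at 0 in every WT library, summed to 297.8 to 386.9 CPM in WT and 58.65 to 99.15 CPM in the Gata1s libraries. The 7 mast cell and basophil markers summed to 965 to 1144 CPM in WT and 2.24 to 426 CPM in the Gata1s libraries, and the 5 haematopoietic markers to 1336 to 1358 CPM against 406 to 1002 CPM. The 7 megakaryocyte markers went the other way, with 899 to 1146 CPM in WT and 2245 to 4792 CPM in the Gata1s libraries. The 6 erythroid markers (74.19 to 121.6 against 99.15 to 598.1 CPM) and the 5 lymphocyte and NK markers (45.32 to 66.44 against 0.4362 to 75.34 CPM) overlapped. The part of these cells in the WT levels of the 39 genes was not tested.

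**Figure D2:**
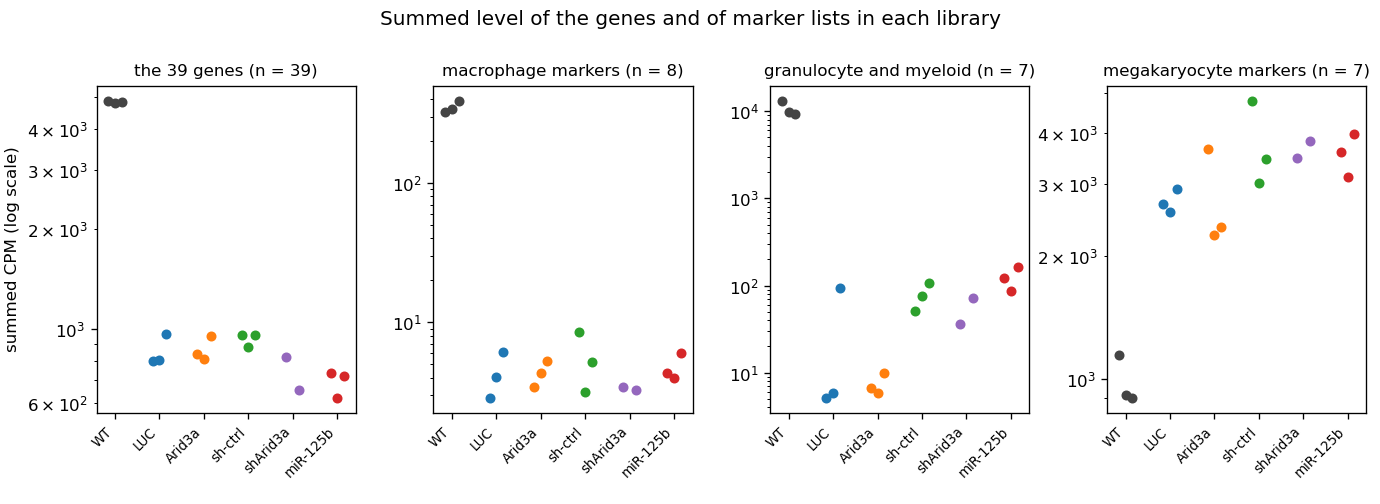
Summed CPM (log scale) of the 39 genes and of 3 marker lists in each library, by group, with each point 1 library. WT is above all other groups for the 39 genes (4790 to 4869 against 618 to 963 CPM), the macrophage list and the granulocyte and myeloid list, and below them for the megakaryocyte list.

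Within the Gata1s cells, calls among the 39 genes came from miR-125b against sh-ctrl. Of the 39 genes, 36 passed the filter on low counts in the 10-day table (Oasl1, Ifit3 and Ifi44 did not), and against sh-ctrl 15 were called lower and 1 (Ifi35) higher at an adjusted p under 0.05. Over all 14004 genes tested, 12.2% were called lower and 12.1% higher, so the share of the tested genes called lower, 41.7%, can be read against 12.2%. The fitted log2 fold change was below 0 for 30 of the 36 and its median was -0.74, against -0.03 over all genes tested. For 21 of the 36 every miR-125b library was below every sh-ctrl library, against 23% of all genes. The count depended on single libraries: without sh-ctrl replicate 3 it was 3 genes (Ddx58, Oas3 and Parp14, all lower), while calls over all genes dropped from 3414 to 734. Without sh-ctrl replicate 2 it was 8, without miR-125b replicate 1 it was 9, and without miR-125b replicate 2 it was 10. With library totals in place of TMM the median over all genes moved to -0.21 and the count was 18 lower and none higher, since Ifi35 was no longer called. The main fit holds no term for replicate numbers. With these as a block, 20 genes were called lower and 1 higher, beside 1882 lower and 1805 higher of all 14004 genes.

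**Figure D3:**
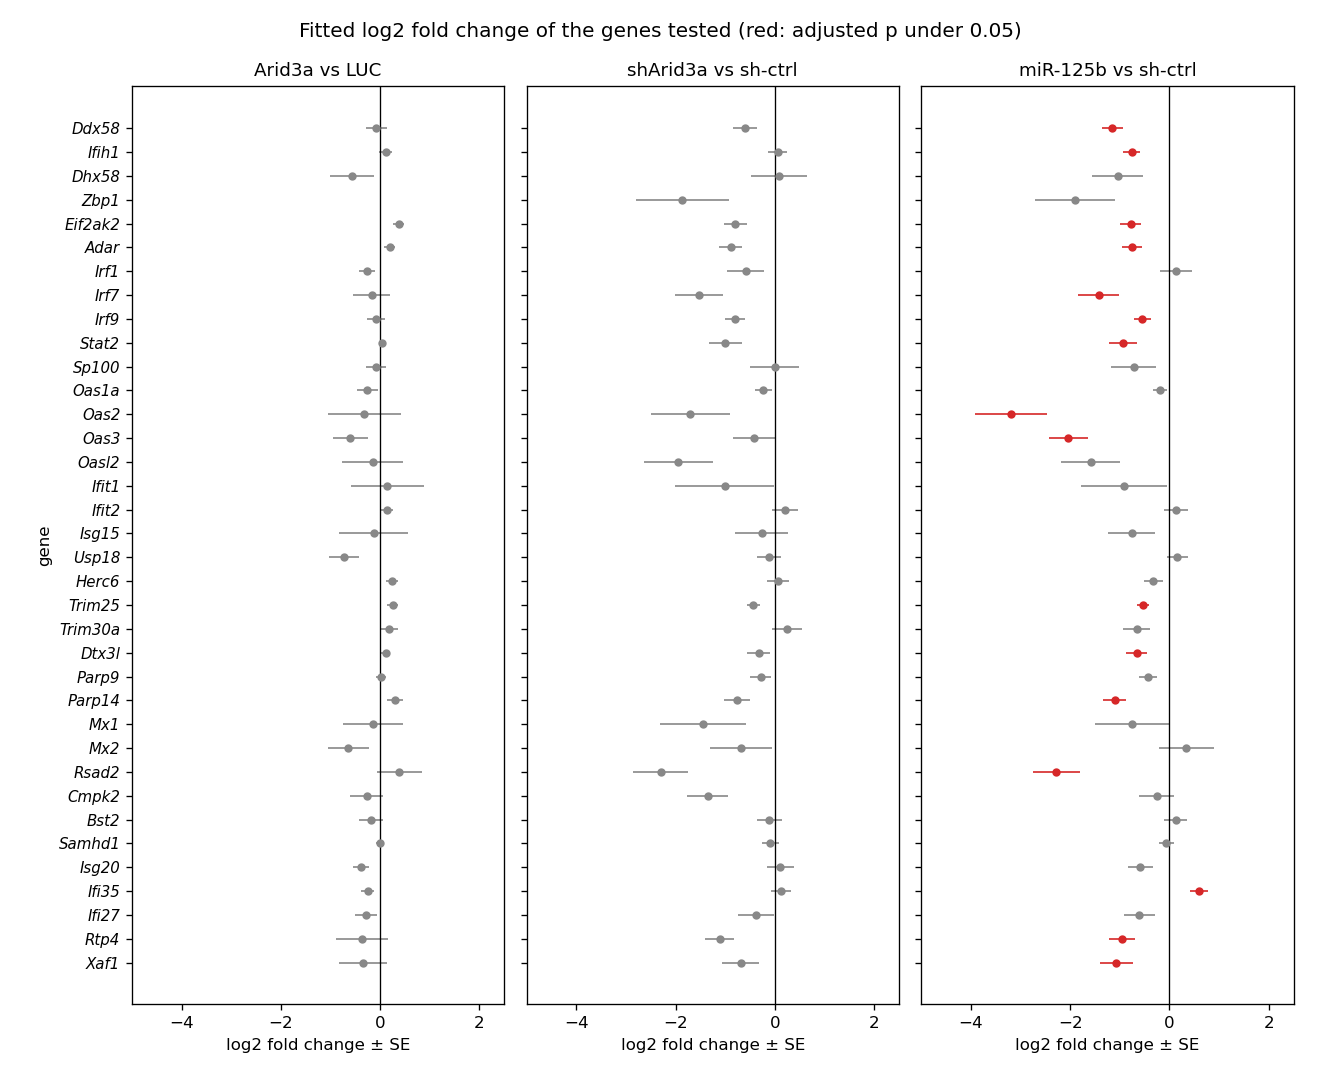
Fitted log2 fold change with its standard error for the 36 genes tested in the 10-day table, by role, in 3 comparisons; red points passed the test and grey points did not. In the panel of miR-125b against sh-ctrl 15 red points lie to the left of 0 and 1, Ifi35, to the right, and the other panels have no red point.

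Among the sensors, all 6 were tested and 4 were called lower with miR-125b. Ddx58 (chromosome 4, 40203773 to 40239828, minus strand, mm10), which encodes RIG-I, was 21.7, 29.8 and 35.5 CPM in sh-ctrl and 11.3, 13.5 and 14.6 CPM in miR-125b. The groups did not overlap, and the log2 fold change was -1.15 (SE 0.22, adjusted p = 0.00901). The shArid3a libraries, at 21.1 and 17.2 CPM, lay between them. Ifih1 (chromosome 2, 62595798 to 62646255, minus strand), which encodes MDA5, was 28.8, 27.1 and 29.8 CPM in sh-ctrl, 32.6 and 27.3 CPM in shArid3a and 19.7, 15.2 and 16.1 CPM in miR-125b. All 3 miR-125b libraries were below the 5 others, with a log2 fold change against sh-ctrl of -0.76 (SE 0.17, adjusted p = 0.0134). Eif2ak2, which encodes PKR, was 46.9, 55.3 and 46.8 CPM in sh-ctrl and 20.6, 36.9 and 30.2 CPM in miR-125b (log2 fold change -0.78, SE 0.21, adjusted p = 0.0252). Adar was 39.4, 53.3 and 51.5 CPM in sh-ctrl and 21.5, 29.4 and 35.4 CPM in miR-125b (log2 fold change -0.75, SE 0.20, adjusted p = 0.025). In both genes the shArid3a libraries lay within the range of those of miR-125b, at 31.9 and 26.0 CPM for Eif2ak2 and 27.4 and 24.9 CPM for Adar. Dhx58, which encodes LGP2, a partner of the other helicases, had a log2 fold change of -1.04 (adjusted p = 0.157). Zbp1 had 15 to 43 counts in sh-ctrl and 1 to 13 in miR-125b, and a log2 fold change of -1.91 (adjusted p = 0.105) that passed with replicate numbers as a block, at -2.11 (adjusted p = 0.0345).

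Of the 5 transcription factors, Irf7, Stat2 and Irf9 were called lower. Irf7 (chromosome 7, 141262706 to 141266481), the factor that amplifies interferon production, was 7.65, 13.3 and 18.0 CPM in sh-ctrl and 3.03, 4.47 and 7.03 CPM in miR-125b. The highest miR-125b library was just below the lowest sh-ctrl library, with a log2 fold change of -1.42 (SE 0.41, adjusted p = 0.0331). Stat2 was 34.2, 28.8 and 40.6 CPM in sh-ctrl and 10.0, 22.2 and 22.2 CPM in miR-125b, a log2 fold change of -0.94 (SE 0.29, adjusted p = 0.0396), and miR-125b replicate 1 was the lowest of all. Irf9, which gives the STAT complex its DNA-binding specificity, was 35.6, 38.6 and 39.4 CPM in sh-ctrl and 20.5, 27.2 and 30.7 CPM in miR-125b, a log2 fold change of -0.55 (SE 0.17, adjusted p = 0.043). Stat2 and Irf9 encode subunits of the same complex, and both groups were separated in each. Irf1 (log2 fold change 0.12, adjusted p = 0.797) and Sp100, a nuclear-body protein gene (-0.72, adjusted p = 0.253), did not pass, although Sp100 did with the block, at -0.87 (adjusted p = 0.0223).

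Of the 4 oligoadenylate synthetase genes tested, Oas2 and Oas3 were called lower. Oas2 (chromosome 5, 120730333 to 120749853, minus strand) and Oas3 (120753098 to 120777661, minus strand) are neighbours on chromosome 5. Oas3 was 19.2, 13.9 and 21.9 CPM in sh-ctrl, 19.1 and 8.36 CPM in shArid3a and 4.46, 2.61 and 6.25 CPM in miR-125b. All miR-125b libraries were below the 5 others of the 10-day table, and the log2 fold change against sh-ctrl was -2.04 (SE 0.39, adjusted p = 0.00917). Oas2 had 49, 35 and 89 counts in sh-ctrl and 9, 2 and 1 counts in miR-125b, or 1.52, 1.12 and 2.41 CPM and 0.321, 0.0608 and 0.0279 CPM. Its log2 fold change was -3.19 (SE 0.72, adjusted p = 0.0152), a size that depends on the prior count of the fit because 2 of the miR-125b libraries were under the floor of 3 counts. Oasl2, a synthetase-like relative, had a log2 fold change of -1.59 (adjusted p = 0.0727) and did not pass. Oas1a, the member of the family with the highest level per kilobase, was 31.4, 31.8 and 33.2 CPM in sh-ctrl and 31.3, 25.1 and 28.7 CPM in miR-125b, a log2 fold change of -0.19 (SE 0.15, adjusted p = 0.352). So with Oas2 left aside for its few counts, fold changes in this family on 1 chromosome ranged from -2.04 (Oas3) to -0.19 (Oas1a) in log2.

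In the IFIT family neither of the 2 tested genes was called. Ifit1 was 0.341, 0.610 and 0.570 CPM in sh-ctrl and 0, 0.122 and 0.586 CPM in miR-125b (log2 fold change -0.92, SE 0.87, adjusted p = 0.461), and Ifit2, which is far more abundant in these cells, had a log2 fold change of 0.14 (adjusted p = 0.708).

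Of the 8 genes of the ISG15 pathway and its ubiquitin and ADP-ribose ligases, Trim25, Parp14 and Dtx3l were called lower. Trim25 was 93.0, 98.2 and 95.2 CPM in sh-ctrl and 60.0, 69.4 and 71.2 CPM in miR-125b, the smallest fall of the 15 but with tight groups (log2 fold change -0.53, SE 0.12, adjusted p = 0.0142). Parp14 (chromosome 16, 35832874 to 35871544, minus strand), an ADP-ribosyltransferase, was 20.5, 17.5 and 17.9 CPM in sh-ctrl and 7.99, 8.60 and 9.59 CPM in miR-125b, a log2 fold change of -1.11 (SE 0.23, adjusted p = 0.0125). Dtx3l (35926511 to 35939151 on the same chromosome and strand), a ubiquitin ligase that works with PARP9, was 23.6, 29.9 and 35.6 CPM in sh-ctrl and 18.1, 17.1 and 21.6 CPM in miR-125b, a log2 fold change of -0.66 (SE 0.21, adjusted p = 0.043). Parp9 itself, which overlaps Dtx3l on the other strand, had a log2 fold change of -0.44 (adjusted p = 0.108). Isg15 was 5.08, 3.05 and 5.78 CPM in sh-ctrl and 3.82, 1.03 and 3.35 CPM in miR-125b. Its groups overlapped, and the log2 fold change was -0.77 (SE 0.47, adjusted p = 0.252). Usp18, which removes ISG15 and blocks the receptor, was 26.3, 21.6 and 27.4 and 36.7, 21.0 and 27.3 CPM in the same groups, a log2 fold change of 0.16 (adjusted p = 0.619). Trim30a (-0.66, adjusted p = 0.1) did not pass without the block and did with it, at -0.70 (adjusted p = 0.0289), and Herc6 (-0.33, adjusted p = 0.242) did not pass in either fit.

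Of the 7 direct antiviral effectors Rsad2 alone was called, and it fell. Rsad2 (chromosome 12, 26442746 to 26456452, minus strand), which encodes viperin, the enzyme that makes a chain-terminating nucleotide, was 4.55, 4.88 and 5.91 CPM in sh-ctrl, 1.58 and 0.400 CPM in shArid3a and 0.749, 1.03 and 1.25 CPM in miR-125b. Every sh-ctrl library was above the 5 others, and the log2 fold change of miR-125b against sh-ctrl was -2.28 (SE 0.48, adjusted p = 0.0118). Cmpk2, the neighbouring kinase gene (26469204 to 26479837 on chromosome 12), was 3.50, 8.28 and 6.29 CPM in sh-ctrl and 5.92, 5.38 and 3.96 CPM in miR-125b, a log2 fold change of -0.26 (adjusted p = 0.62) with overlapping groups. Mx1 (-0.76, adjusted p = 0.474) and Mx2 (0.34, adjusted p = 0.684), dynamin-like GTPase genes, Samhd1 (-0.07, adjusted p = 0.766) and Isg20 (-0.59, adjusted p = 0.107) did not pass. Isg20 did with the block, at -0.57 (adjusted p = 0.0272). Mx2 is annotated as a polymorphic pseudogene in GENCODE M21. Bst2 was 67.0, 41.1 and 45.7 CPM in sh-ctrl and 72.0, 40.3 and 57.0 CPM in miR-125b, a log2 fold change of 0.12 (adjusted p = 0.728) whose sign turned with library totals (-0.079) and when either miR-125b replicate 1 (-0.086) or sh-ctrl replicate 2 (-0.02) was left out.

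Of the 5 other genes Rtp4 and Xaf1 were called lower and Ifi35 higher. Rtp4, a receptor chaperone gene induced by interferon, was 7.90, 12.1 and 12.3 CPM in sh-ctrl and 5.07, 5.08 and 6.47 CPM in miR-125b (log2 fold change -0.96, SE 0.26, adjusted p = 0.0256). Xaf1, whose product counters the apoptosis inhibitor XIAP, was 4.87, 3.82 and 4.12 and 2.28, 1.34 and 2.45 CPM in those groups (log2 fold change -1.07, SE 0.33, adjusted p = 0.0401). Ifi35 was 29.5, 23.6 and 28.7 CPM in sh-ctrl, 25.5 and 35.0 CPM in shArid3a and 42.4, 33.8 and 48.0 CPM in miR-125b, so it moved against the other called genes, with a log2 fold change of 0.59 (SE 0.18, adjusted p = 0.0407). Ifi27 was 114, 76.2 and 105 CPM in sh-ctrl and 101, 39.9 and 54.8 CPM in miR-125b. Its groups overlapped through miR-125b replicate 1, and its log2 fold change of -0.61 (adjusted p = 0.181) passed with the block, at -0.70 (adjusted p = 0.0178).

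**Figure D4:**
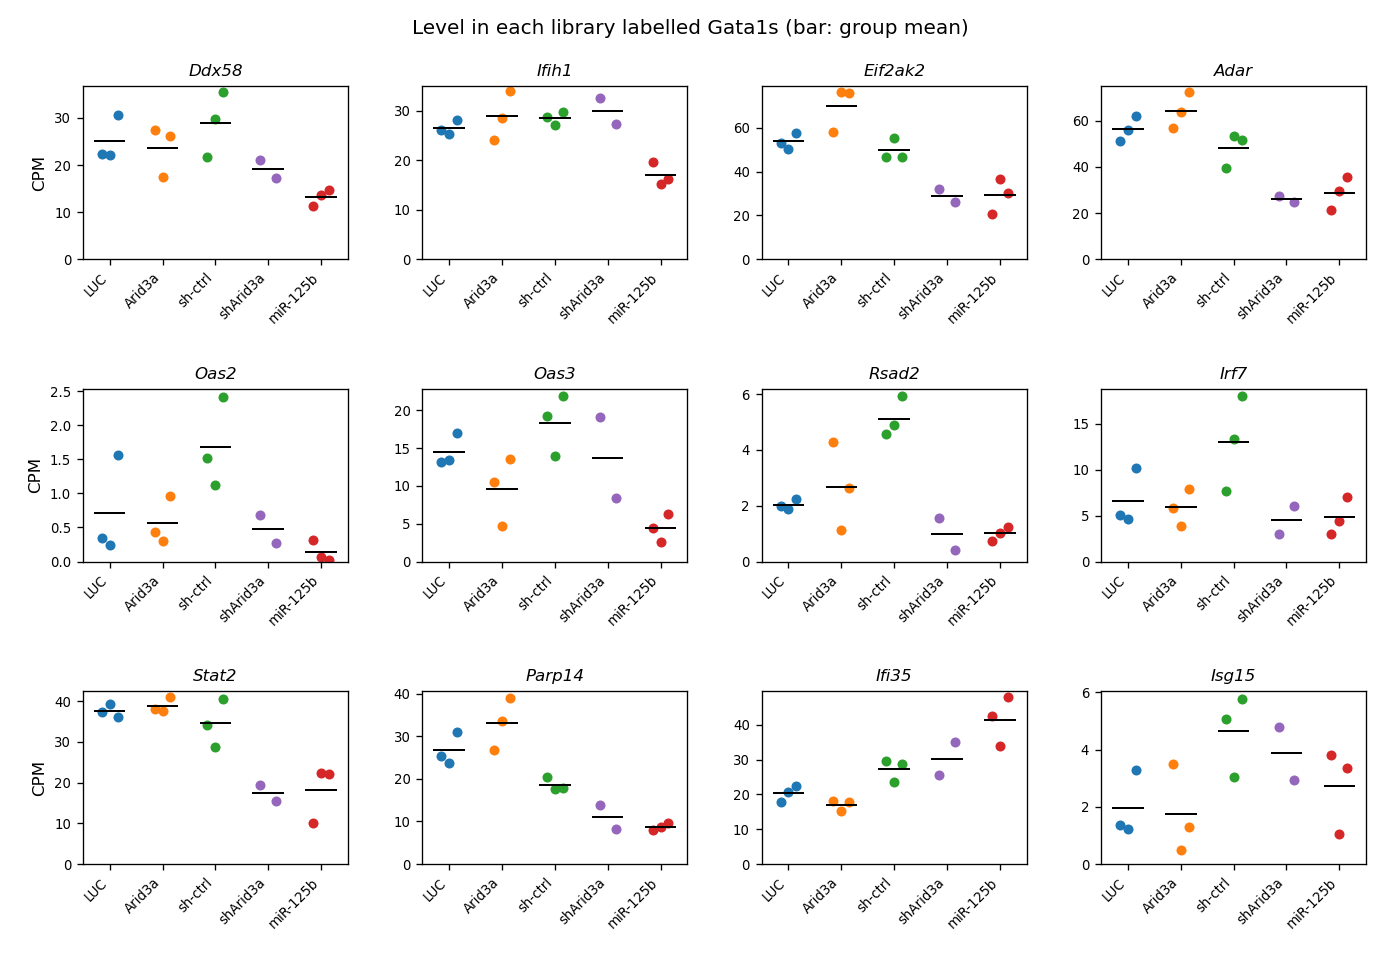
CPM of 12 of the genes in each library labelled Gata1s, by group, with a bar at the group mean and every axis from 0. In Ddx58, Oas3 and Rsad2 the 3 miR-125b points lie below all 3 sh-ctrl points, in Ifi35 they lie above, and in Isg15 the groups overlap.

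Gene length moved with these calls. The called-lower genes had a median length in the deposited table of 5386 bases and those not called one of 3572 bases. Over all genes the median length was 5739 bases for those called lower and 2222 bases for those called higher. Of genes of 5000 bases or more, 9 of 13 of the list (69.2%) and 23.8% of all 4326 were called lower. From 2000 to under 5000 bases it was 5 of 16 (31.2%) against 9.02%, and below 2000 bases 1 of 7 (14.3%) against 3.96%. Within each length class the share was thus above that of all genes, on small counts. The part of length in single calls was not tested.

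**Figure D5:**
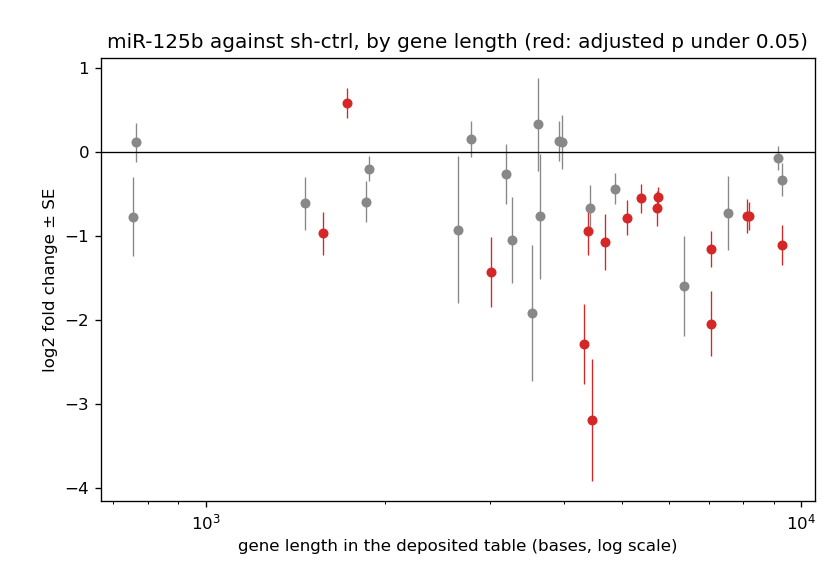
Log2 fold change of miR-125b against sh-ctrl with its standard error against gene length (bases, log scale) for the 36 genes tested, with called genes in red. Of the 13 genes of 5000 bases or more 9 were called lower, and the only gene called higher, Ifi35, is 1727 bases long.

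Other cell markers moved with miR-125b as well. The myeloid enzyme gene Mpo was 0.620, 0.0321 and 0 CPM in sh-ctrl and 69.6, 29.5 and 40.1 CPM in miR-125b (log2 fold change 7.39, adjusted p = 0.00161). The granulocyte and myeloid list as a whole was 51.0 to 108 CPM in sh-ctrl and 87.6 to 164 CPM in miR-125b, with 2 of 4 tested markers (Mpo and Elane) called higher. Of the mast cell and basophil list 2 of 7 (Mcpt8 and Prss34) were called higher, with a sum of 7.09 to 97.4 CPM in sh-ctrl and 33.2 to 426 CPM in miR-125b. The erythroid list was 332 to 598 CPM in sh-ctrl and 183 to 214 CPM in miR-125b, and 2 of its 5 tested genes, the globin genes Hbb-bs (-2.21, adjusted p = 0.0103) and Hbb-bt (-1.91, adjusted p = 0.0267), were called lower. Of the 7 megakaryocyte markers Itga2b and Vwf were called lower and Gp1bb higher, and of the 2 tested hepatoblast, stromal and endothelial markers Afp was called higher. These counts come from small lists, and over all genes tested 12.2% were called lower and 12.1% higher. The macrophage list was at 3.14 to 8.52 and 3.98 to 5.97 CPM, where the lowest adjusted p among its 4 tested genes was 0.056, and the plasmacytoid marker Siglech was at 0 in every library of both groups. The ribosomal RNA-like transcripts were 379 to 722 CPM in sh-ctrl and 2857 to 3783 CPM in miR-125b, and without those genes 16 of the 36 genes were called, as with them. The part of these markers in the result was not tested.

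The hairpin against Arid3a gave no calls among the 36 genes tested, and 0.0857% of all genes tested were called (12 of 14004, in either direction, and 0 without the ribosomal RNA-like genes). At an unadjusted p under 0.05 there were 12 genes, against 25.8% of all genes. DESeq2 tested more genes, 38 of the list and 21664 in all. It called 10 of those 38 lower (Adar, Cmpk2, Eif2ak2, Irf7, Irf9, Oasl2, Parp14, Rsad2, Rtp4 and Stat2), against 3.75% of the 21664. The 21664 include genes of few counts that the main filter left out, so the 3.75% is not matched to the list in level. The fitted log2 fold change was below 0 for 29 of the 36, with a median of -0.51, and for 18 of the 36 both shArid3a libraries were below all 3 sh-ctrl libraries, against 22.2% of all genes. The 3 widest fold changes were those of Rsad2 (-2.30, SE 0.56, adjusted p = 0.0989), Oasl2 (-1.94, SE 0.70, adjusted p = 0.132) and Zbp1 (-1.87, SE 0.94, adjusted p = 0.235). Oasl2 was 2.63, 3.24 and 1.95 CPM in sh-ctrl and 0.775 and 0.50 CPM in shArid3a, and Zbp1 had 12 and 2 counts in shArid3a.

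Several genes were near the threshold in that comparison. Irf9 was 20.2 and 23.5 CPM in shArid3a, below all sh-ctrl libraries, with a log2 fold change of -0.81 (SE 0.20, adjusted p = 0.0989). Adar had a log2 fold change of -0.89 (SE 0.23, adjusted p = 0.101), Rtp4 one of -1.11 (SE 0.30, adjusted p = 0.101) and Eif2ak2 one of -0.79 (SE 0.24, adjusted p = 0.107). Cmpk2 was 2.80 and 1.87 CPM in shArid3a, a log2 fold change of -1.36 (SE 0.42, adjusted p = 0.11), so the neighbours Rsad2 and Cmpk2 were both lower than every sh-ctrl library there. The sensors Ifih1 (0.06, adjusted p = 0.873) and Dhx58 (0.08, adjusted p = 0.948) and the effectors Samhd1 (-0.09, adjusted p = 0.761) and Bst2 (-0.11, adjusted p = 0.813) were near 0. The 2 libraries differed from each other: replicate 1 was the higher for 30 of the 37 genes detected, with 19.1 and 8.36 CPM of Oas3 and 2.47 and 0.167 CPM of Mx1 in replicates 1 and 3. Leaving out replicate 1 moved the median from -0.51 to -0.74, leaving out replicate 3 moved it to -0.30, and no gene of the list was called in either case.

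The comparisons of miR-125b and of shArid3a with sh-ctrl share their control libraries, so their values are set side by side with no measure of agreement. For Irf7 the log2 fold changes were -1.42 with miR-125b and -1.53 with shArid3a, for Stat2 -0.94 and -1.0, and for Xaf1 -1.07 and -0.69. For Oas3 they were -2.04 and -0.42, and for Ifih1 -0.76 and 0.06. The difference itself was tested by fitting miR-125b against shArid3a. No gene of the list was called among the 36 tested, against 1.35% of all genes. At an unadjusted p under 0.05 there were 7 genes, against 14.5% of all genes. DESeq2 tested 38 genes of the list and 21664 in all. It called Ifih1 and Oas3 lower, against 1.49% of the 21664, which again include genes of few counts that the main filter left out. The median log2 fold change was -0.02, with 18 of the 36 below 0.

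Oas3, Oas2 and Dhx58 had the widest differences between miR-125b and shArid3a. Oas3 had a log2 fold change of -1.62 (SE 0.42, adjusted p = 0.092) and did not overlap, whereas Oas2 (-1.49, SE 0.72, adjusted p = 0.369) and Dhx58 (-1.12, SE 0.56, adjusted p = 0.394) did. Dhx58 was 6.94 and 1.83 CPM in shArid3a replicates 1 and 3 and 2.75, 1.28 and 2.01 CPM in miR-125b, and without shArid3a replicate 1 the sign turned, to 0.15. Ifih1 had a log2 fold change of -0.82 (SE 0.18, adjusted p = 0.0601), with all miR-125b libraries below both shArid3a libraries, and without miR-125b replicate 1 it was called. Cmpk2 went the other way (1.10, SE 0.41, adjusted p = 0.25). A p that misses the threshold does not show that the groups act alike: for Rsad2 the log2 difference was 0.02 (SE 0.51, adjusted p = 0.992), and for Irf7 0.11 (SE 0.46, adjusted p = 0.949).

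At 48 h, 35 of the 39 genes passed the filter (Zbp1, Oasl1, Ifit3 and Ifi44 did not), and none was called between the libraries labelled Arid3a and LUC, where 0% of the 13495 genes tested were called in either direction. At an unadjusted p under 0.05 there were 3 genes (Eif2ak2, Usp18 and Isg20), against 21.4% of all genes. DESeq2 tested all 39 genes of the list and 22085 in all. It called Eif2ak2 higher, against 3.08% of the 22085, which include genes of few counts that the main filter left out. For 2 genes (Eif2ak2 and Herc6) every library labelled Arid3a was above every LUC library, against 13% of all genes, and for 1 (Isg20) every one was below, against 14.6%. Eif2ak2 was 53.3, 50.5 and 57.8 CPM in LUC and 58.4, 76.2 and 75.8 CPM in the libraries labelled Arid3a, a log2 fold change of 0.37 (SE 0.11, adjusted p = 0.13). Without Arid3a replicate 1, Eif2ak2, Parp14 and Trim25 were called higher, together with 3198 of all genes.

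The widest fold changes at 48 h were those of Usp18, Mx2 and Oas3. Usp18 was 24.8, 23.3 and 34.7 CPM in LUC and 11.1, 13.8 and 25.1 CPM in the libraries labelled Arid3a, where replicate 3 overlapped LUC (log2 fold change -0.73, SE 0.31, adjusted p = 0.227). Mx2 was 2.40, 3.69 and 2.54 and 0.854, 2.24 and 2.43 CPM (log2 fold change -0.64, SE 0.41, adjusted p = 0.409), and Oas3 was 13.1, 13.4 and 17 and 10.5, 4.66 and 13.5 CPM (log2 fold change -0.60, SE 0.35, adjusted p = 0.369). None of these groups was separated. The median over the 35 genes was -0.13, and without LUC replicate 3, the library with granulocyte transcripts, it was 0.09 (0.03 without Arid3a replicate 2). Several genes were highest in that library: Oas2 was 0.351, 0.243 and 1.56 CPM in the 3 LUC libraries, Oasl2 1.54, 1.07 and 4.51 CPM and Irf7 5.10, 4.62 and 10.2 CPM. Arid3a replicate 3 was the highest of its own group for 24 of the 39 genes.

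Other genes of the pathway were read beside the 39. The 10 interferon ligand genes were at 0 or close to it in every library and none was tested: Ifnb1 was at most 0.0321 CPM in a Gata1s library and 0.186 CPM in WT. Of 13 receptor and JAK-STAT genes 12 were tested. Against sh-ctrl, 1 was called higher with miR-125b, the phosphatase gene Ptpn2 (log2 fold change 0.59, SE 0.15, adjusted p = 0.0194), and 1 lower, the kinase gene Tyk2. The share called lower, 8.33%, was not above the 12.2% of all genes, and 12.1% of all genes were called higher. Tyk2 was 81.0, 59.2 and 83.7 CPM in sh-ctrl, 69.1 and 44.5 CPM in shArid3a and 27.0, 27.7 and 28.6 CPM in miR-125b. All miR-125b libraries were below the 5 others, with a log2 fold change of -1.44 (SE 0.19, adjusted p = 0.00429) against sh-ctrl and of -1.04 (SE 0.21, adjusted p = 0.045) against shArid3a. The receptor genes Ifnar1 (-0.10, adjusted p = 0.585) and Ifnar2 (0.18, adjusted p = 0.428) and the kinase gene Jak1 (-0.30, adjusted p = 0.112) were not called. With shArid3a the lowest adjusted p among the 12 was 0.116, and at 48 h it was 0.194.

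Of 16 adaptors and kinases of the sensors 11 were tested in the 10-day table. With miR-125b against sh-ctrl, Cgas, the DNA sensor, fell (-0.78, adjusted p = 0.0382), and Sting1, which carries the signal of cGAS, rose (0.66, adjusted p = 0.0325). Mavs had a log2 fold change of -0.43 (adjusted p = 0.0791) and Irf3 one of 0.32 (adjusted p = 0.117). Of 38 further interferon-induced genes 30 were tested, of which 7 were called lower and 3 higher. The share called lower was 23.3%, against 12.2% of all genes, and 12.1% of all genes were called higher. The log2 fold change was below 0 for 19 of the 30. Helz2, a helicase coactivator (-1.78, adjusted p = 0.00503), Slfn5, a Schlafen family gene (-3.00, adjusted p = 0.00784), and Irgm2, an immunity-related GTPase gene (-1.39, adjusted p = 0.0125), were among those called lower. The 3 called higher were the membrane protein genes Ifitm3 (0.83, adjusted p = 0.00616) and Ifitm1 (0.76, adjusted p = 0.0279) and the GTPase gene Ifi47 (0.51, adjusted p = 0.0405). Slfn5 was 3.53, 5.45 and 7.08 CPM in sh-ctrl, 1.46 and 0.433 CPM in shArid3a and 0.357, 0.547 and 0.948 CPM in miR-125b. Ifitm3 was 832, 778 and 776 CPM in sh-ctrl and 1579, 1288 and 1426 CPM in miR-125b, above all WT libraries, and calls among the interferon-induced genes outside the 39 thus went in both directions.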

How the data were processed

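Total RNA was sequenced on an Illumina platform, per the labels' protocols. The deposited tables hold raw counts per gene, made by the authors with fastp, HISAT2 2.0.5, featureCounts and mm10, per the submitters' processing notes; the annotation and strand setting are not given in the sources used here. The 3 tables were joined by Ensembl identifier. Levels are CPM scaled by TMM over the 17 libraries. Comparisons were fitted within a table, over all genes, by edgeR 4.0.16 in R 4.3.3 (quasi-likelihood test, TMM, filterByExpr, prior count 2), with Benjamini-Hochberg adjustment and a threshold of 0.05. LUC and Arid3a were fitted together, as were sh-ctrl, shArid3a and miR-125b. The value given as SE is the absolute log2 fold change divided by the square root of the F statistic of the test. It was not estimated separately. shArid3a number 2 was not analysed here. Alternatives were DESeq2 1.42.0, other scalings and filters, a replicate block, and leaving out each library. The fitting steps were checked on simulated counts.

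Replicate numbers come from the labels. Over genes, same-numbered libraries of the 10-day table deviated together from their group means in every pair (correlations of 0.151 to 0.431). Differently numbered pairs there ranged from -0.431 to 0.364, with some above 0. The numbers may thus pair the libraries, but this is not settled. The main fits hold no term for the numbers, so calls are from unpaired fits unless a block is named. At 48 h the same-numbered correlations were 0.158, 0.365 and 0.00840, and no pairing was taken from them.

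The 39 genes and the other gene lists were chosen with earlier results of these data known. Values in every library are given for genes called in any comparison, for the 3 widest fold changes of each comparison and for the gene with the highest level per kilobase in each role. Of other pathway lists up to 4 called genes with the smallest adjusted p are named, with a few fixed receptors and adaptors; some genes of these lists are not reported here. Promoter and microRNA sequences are from RefSeq (GRCm38.p6). The 3′ untranslated regions are those of coding transcripts in GENCODE M21. Gene positions are those of GENCODE M21 (mm10). They equal those of the deposited WT table for 34 of the 39 genes, and Rsad2 and Cmpk2 are among the genes that differ.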

Additional observations from a re-analysis of the deposited data

How the results depend on the processing

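With miR-125b set against sh-ctrl, 16 genes of the 39 were called, and 15 to 21 under the alternatives that kept all libraries (21 with the replicate block). Leaving out 1 library gave 3 to 14. Ddx58, Oas3 and Parp14 were called under all 15 alternatives, with adjusted p up to 0.0463, 0.0416 and 0.0477. Of the 15 alternatives, Ifih1, Rsad2 and Trim25 lost the call in 1, without sh-ctrl replicate 3. So did Oas2 among the 14 alternatives that tested it, since a filter of 10 counts in every library removed it. For shArid3a against sh-ctrl the count of 0 became 10 with DESeq2 and 7 with no filter on low counts, and stayed 0 when any 1 library was left out. For miR-125b against shArid3a it became 2 with DESeq2 and 3 with no filter, and leaving out 1 library gave 0 to 1. For the libraries labelled Arid3a against LUC it became 1 with DESeq2, and leaving out 1 library gave 0 to 3. The replicate block changed no call in these 3 comparisons, with a count of 0 in each. WT stood above all Gata1s libraries for 38 genes also by library totals, without any 1 WT library, and without LUC replicate 3, a choice made after seeing the data.

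Signs turned for genes that were not called. Bst2 with miR-125b against sh-ctrl had a log2 fold change of 0.12 and one of -0.079 with library totals. Leaving out 1 library gave it -0.086 (miR-125b replicate 1) to 0.35 (sh-ctrl replicate 1), with -0.02 for sh-ctrl replicate 2. With shArid3a, leaving out 1 library gave the same gene -0.26 to 0.11 (sh-ctrl replicate 1 left out) and Isg15 -0.68 to 0.062 (shArid3a replicate 3 left out). For Dhx58 in miR-125b against shArid3a it gave -1.78 to 0.15 (shArid3a replicate 1 left out). The cause was not tested. With library totals the calls over all genes for miR-125b against sh-ctrl went from 1700 higher and 1714 lower to 890 higher and 2452 lower. Low counts in the Gata1s libraries, which were deeper than those of WT, limit Zbp1, Oas2, Ifit1 and Oasl2. Oasl1, Ifit3 and Ifi44 did not pass the filter of the main fits.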
